A study of Homo sapiens with 12 samples.

Results

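Enzymes that write histone H3 lysine 9 methylation, proteins that read it and the corepressor TRIM28 were followed as 9 genes. These were EHMT1, EHMT2, SETDB1, SUV39H1, SUV39H2, CBX1, CBX3, CBX5 and TRIM28. They were found by gene symbol among 65975 gene identifiers, and 15 of the 66095 entries carried one of these symbols. EHMT2 had 7 entries, of which 6 were listed at 0 in every library and were absent from the primary-assembly annotation, and the entry with signal was used. The RNA-seq data held 12 libraries, 3 in each of 4 groups. RD is an established line of fusion-negative rhabdomyosarcoma (FN-RMS), grown in DMEM, and Rh30 an established line of fusion-positive rhabdomyosarcoma (FP-RMS), grown in RPMI. Cells of each line had been stably transduced by lentivirus and selected in puromycin, and carried either a scrambled control shRNA (Scramble) or 1 shRNA against the H3K9 demethylase KDM3A (KDM3A-sh2). Each subtype was thus represented by 1 line and the depletion by 1 shRNA, and since neither the labels nor the Methods tell whether the 3 libraries per group were separate cultures, p-values measure only the spread between libraries, which may be technical. The 3 Rh30 Scramble libraries are numbered 1 to 3 in their titles, whereas their descriptions and column names all end in 1 after different leading numbers, so both n = 3 and the replicate numbers of that group rest on the titles. Values are FPKM, the fragments of a gene scaled to its exon length and to the number of reads mapped, so levels of different genes can be set side by side. All differences are on the scale of log2(FPKM + 1) and were tested with limma over every gene averaging 1 FPKM or more, and a gene was called, higher or lower, when its Benjamini-Hochberg adjusted p was below 0.05. The words rose and fell are kept for called genes.

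Methylation of lysine 9 on histone H3 marks silent chromatin. EHMT1 (GLP) and EHMT2 (G9a) work as a pair and place the mono- and dimethyl marks, largely in euchromatin. SETDB1 trimethylates lysine 9 at sites to which TRIM28 (KAP1) brings it, and TRIM28 is itself recruited by KRAB zinc finger proteins, which recognise DNA sequences of transposable elements. SUV39H1 and SUV39H2 place the trimethyl mark in pericentric heterochromatin. The chromodomains of the HP1 proteins bind the methylated lysine. HP1 beta is encoded by CBX1, HP1 gamma by CBX3 and HP1 alpha by CBX5. KDM3A, the demethylase depleted in these cells, removes mono- and dimethyl marks from the same lysine, the marks that EHMT1 and EHMT2 place.

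The sequences around the starts of the 3 HP1 genes are shown because the 3 relatives responded to KDM3A-sh2 to different degrees. Each window runs from 250 bases before to 50 bases after a transcription start in RefSeq (GRCh38.p14), read 5′ to 3′ on the strand of the gene. Capitals mark matches, on either strand, to the E2F words TTTCCCGC, TTTCGCGC, TTTGCCGC and TTTGGCGC or to the CCAAT word.
CBX1, chr17:48101137-48101436, minus strand: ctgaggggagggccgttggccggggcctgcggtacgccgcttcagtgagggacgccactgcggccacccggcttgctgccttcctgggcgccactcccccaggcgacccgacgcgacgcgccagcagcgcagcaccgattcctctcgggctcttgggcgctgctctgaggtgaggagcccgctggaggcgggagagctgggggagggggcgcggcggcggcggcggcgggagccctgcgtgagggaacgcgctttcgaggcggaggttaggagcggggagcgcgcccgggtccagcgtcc
CBX3, chr7:26201193-26201492, plus strand: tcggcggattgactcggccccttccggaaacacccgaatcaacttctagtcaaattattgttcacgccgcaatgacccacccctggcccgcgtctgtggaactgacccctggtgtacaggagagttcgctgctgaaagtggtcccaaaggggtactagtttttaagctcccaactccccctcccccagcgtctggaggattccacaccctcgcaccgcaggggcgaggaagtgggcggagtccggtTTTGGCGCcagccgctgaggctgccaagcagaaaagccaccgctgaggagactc
CBX5, chr12:54280073-54280372, minus strand: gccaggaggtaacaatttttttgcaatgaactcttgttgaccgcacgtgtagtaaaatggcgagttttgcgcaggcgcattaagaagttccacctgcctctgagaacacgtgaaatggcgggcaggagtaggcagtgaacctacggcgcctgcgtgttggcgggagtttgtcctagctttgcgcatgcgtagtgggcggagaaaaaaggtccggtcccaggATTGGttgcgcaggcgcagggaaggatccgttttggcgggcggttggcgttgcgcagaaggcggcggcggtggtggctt
The CBX1 window held no match and had 38 CG dinucleotides. The CBX3 window had 19 CG dinucleotides and the word TTTGGCGC across the start. The CBX5 window had 25 CG dinucleotides and 1 CCAAT word on the opposite strand. The median of 35116 promoter windows was 14 CG dinucleotides, with quartiles of 4 and 28. An E2F word stood in 3.3% of all windows and, among the 8 of 9 members with a window, in that of CBX3. A CCAAT word stood in 34.6% of all windows, with CBX5 and SUV39H1 among the members. A match is a run of letters and no evidence of binding.

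CBX1 was the member that fell in both lines, and its 3′ UTR held the 7-base word TGAAGCA. The longest annotated 3′ UTR of a protein-coding CBX1 transcript (GENCODE 29) has 1386 bases, and the word stands at base 518, at chr17:48070902-48070931 on the minus strand with its flanks, where capitals mark the word.
CBX1 3′ UTR site: aggggaaatggTGAAGCAatggaaaagaac
Of 11263 genes with an annotated 3′ UTR that were tested in both lines, 1920 held this word, as did 342 of the 921 of these that fell in both (37.1%) and 266 of the 1696 called lower in RD without a call lower in Rh30 (15.7%). Among the 1833 of the 11263 genes whose 3′ UTR is within 1.25 times the length of that of CBX1, called or not, the share was 11.7%. No share was taken for genes of that length that fell in both lines, so 37.1% and 11.7% differ in both length and call. The word had come up in earlier work on these same libraries as one frequent among shared drops, so these shares are a description and no independent evidence. Among the longest annotated 3′ UTRs of the other 8 members it stood in 1, the 10818-base 3′ UTR of CBX5, at base 9722, and CBX5 was called in neither line.

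KDM3A itself was lower with KDM3A-sh2 in every library. In RD its level was 35.8, 33.9 and 30.9 FPKM in the Scramble libraries and 12.0, 11.2 and 13.4 FPKM with KDM3A-sh2. In Rh30 it was 27.8, 29.2 and 32.0 FPKM in the Scramble libraries and 13.7, 13.2 and 15.4 FPKM with KDM3A-sh2. With KDM3A-sh2 in RD, it fell by 1.39 (log2 scale, SE 0.08, adjusted p = 5e-05) and by 1.02 in Rh30 (SE 0.08, adjusted p = 0.000348). The muscle markers MYOD1, MYOG, DES, CHRNA1 and ACTC1 were expressed in all groups at means from 112.8 FPKM upward, while MYF5 and MYF6 did not exceed 0.315 FPKM in any library. Of 6 markers of other cell types, 5 did not exceed 1.20 FPKM in any library, and the epithelial marker EPCAM reached 7.13 FPKM in Rh30. Summed FPKM ran from 1198300 to 1379197 per library.

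**Figure D1:**
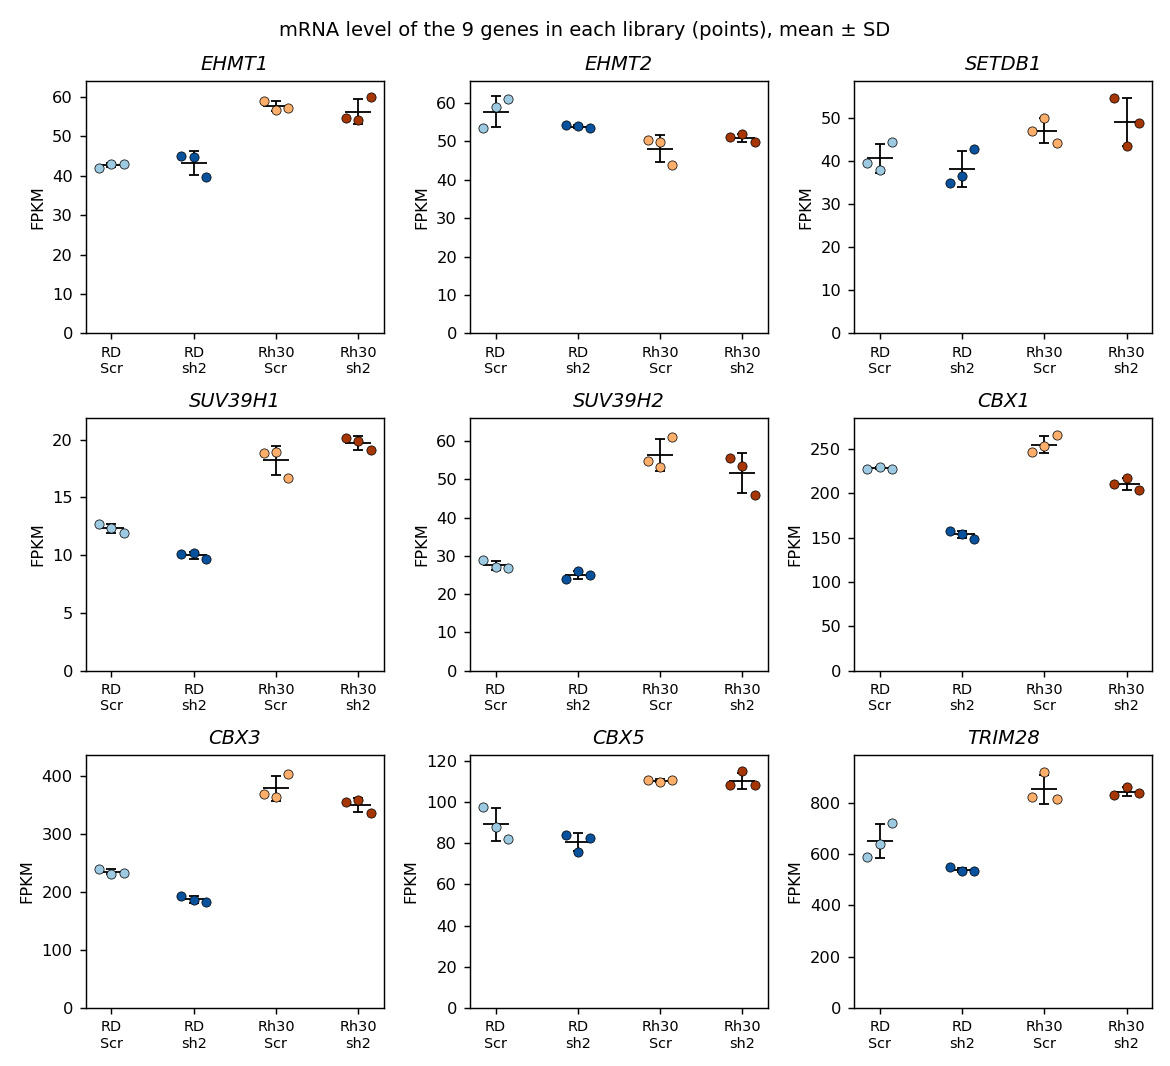
mRNA level in FPKM (y axis, from 0) of each of the 9 genes in every library (points) of the 4 groups, Scramble (Scr) and KDM3A-sh2 (sh2) in RD and Rh30, with the mean and SD of 3 libraries. CBX1 separates Scramble from KDM3A-sh2 in both lines, and the SUV39H1 points with KDM3A-sh2 lie below those with Scramble in RD and above them in Rh30.

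TRIM28 had the highest level of the 9 genes in all 4 groups, followed by CBX3, CBX1 and CBX5, and no library of one of these genes overlapped those of the next in order. The order of CBX3 and CBX1 leaves out their processed copies, described below. With Scramble, the mean level of TRIM28 was 651.3 ± 67.8 FPKM in RD and 854.0 ± 57.7 FPKM in Rh30 (SD, n = 3). The methyltransferases were lower. In RD Scramble the order was EHMT2 (57.7 FPKM), EHMT1 (42.8 FPKM), SETDB1 (40.6 FPKM), SUV39H2 (27.5 FPKM) and SUV39H1 (12.3 FPKM), and only EHMT1 and SETDB1 overlapped. In Rh30 Scramble it was EHMT1 (57.7 FPKM), SUV39H2 (56.4 FPKM), EHMT2 (48.0 FPKM), SETDB1 (47.0 FPKM) and SUV39H1 (18.2 FPKM). The ranges of EHMT1 and SUV39H2 overlapped there, as did those of EHMT2 and SETDB1.

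With KDM3A-sh2 in RD, 4 of the 9 genes fell and 0 rose, against 19.5% of all 17988 genes tested called lower, 21.6% called higher and 41.1% called in either direction. The 4 were CBX1, CBX3, SUV39H1 and TRIM28. The median difference over the 9 genes was -0.14 on the log2 scale, beside 0.01 over all genes tested. In 5 of the 9 the groups had no overlap, all lower with KDM3A-sh2, against 53.4% of all genes tested without overlap in either direction. In Rh30 1 of the 9 fell, CBX1, and 0 rose, against 13.2% of 17803 genes called lower, 15.3% called higher and 28.5% called in either direction. There the groups did not overlap in 2 members that were lower and 1 that was higher, against 45.8% of all genes tested. For a single gene, an exact permutation test (two-sided) of 3 against 3 libraries cannot go below 0.1.

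Most genes of the S phase and G2/M cell cycle lists fell in RD, with median log2 differences of -0.59 and -0.86. The 9 members had a median of -0.14 there, and 4 of them fell. Of 43 S phase genes, 38 fell and 0 rose in RD, and of 54 G2/M genes 51 fell and 1 rose. Of all genes tested in RD, 19.5% were called lower and 21.6% higher. The summed level of the S phase genes was 3067.5 to 3162.1 FPKM in RD Scramble and 1996.1 to 2031.4 FPKM in RD KDM3A-sh2. That of the G2/M genes was 6345.5 to 6450.0 FPKM and 3778.8 to 3910.7 FPKM. In Rh30 9 S phase genes fell and 4 rose, with sums of 4688.4 to 4887.6 FPKM and 4526.8 to 4639.6 FPKM. There 19 of 53 tested G2/M genes fell and 2 rose, with sums of 8852.7 to 8893.5 FPKM and 7760.0 to 8066.6 FPKM. Of all genes tested in Rh30, 13.2% were called lower and 15.3% higher. No gene of either list was at 0 in all libraries of a group. The G2/M list includes the member CBX5 and the HP1 partner LBR, and the S phase list includes UHRF1, a partner of the writers. The cell cycle lists are thus not separate from the members and the partners described below. The part of the cell cycle genes in the differences of CBX1, CBX3, SUV39H1, TRIM28 and the HP1 partners below was not tested. In bulk RNA, fewer cells of a kind and less RNA per cell cannot be told apart.

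**Figure D2:**
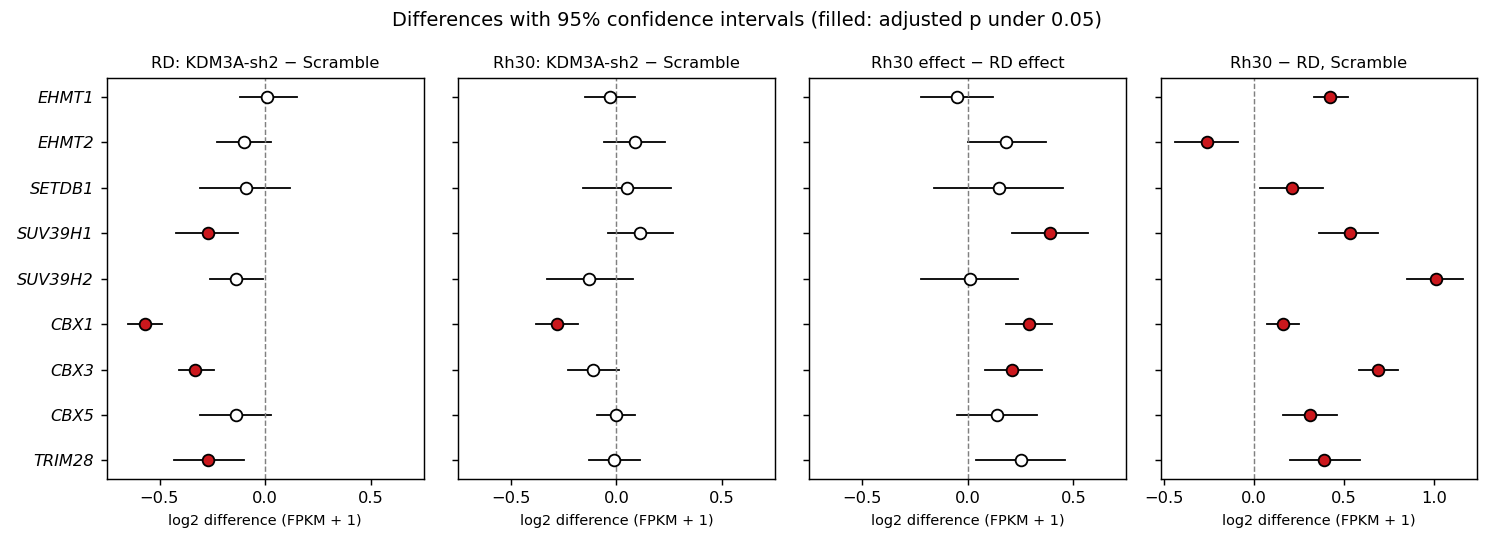
Differences on the log2(FPKM + 1) scale (x axis) of the 9 genes, with 95% confidence intervals, for KDM3A-sh2 against Scramble in RD and in Rh30, for the difference between these 2 effects, and for Rh30 against RD with Scramble; filled points have an adjusted p under 0.05. In the third panel the filled points, SUV39H1, CBX1 and CBX3, all lie above 0.

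The HP1 gene CBX1 (HP1 beta) changed most. In RD its level was 228.0, 229.5 and 227.6 FPKM in the Scramble libraries and 157.6, 154.7 and 148.9 FPKM with KDM3A-sh2. In Rh30 it was 246.2, 253.1 and 265.5 FPKM in the Scramble libraries and 210.1, 217.0 and 203.6 FPKM with KDM3A-sh2. Every KDM3A-sh2 library was below every Scramble library of its line. CBX1 fell by 0.57 on the log2 scale in RD (95% CI -0.65 to -0.49, adjusted p = 4.68e-05, limma) and by 0.28 in Rh30 (95% CI -0.38 to -0.18, adjusted p = 0.00428, limma). The effects differed by 0.29 (95% CI 0.18 to 0.40, adjusted p = 0.00173, limma interaction), against 27.8% of 18517 genes called in that comparison.

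CBX3 (HP1 gamma) was lower in RD. Its level was 239.7, 231.8 and 233.5 FPKM in the Scramble libraries and 193.8, 186.0 and 182.3 FPKM with KDM3A-sh2, without overlap. It fell by 0.33 on the log2 scale (95% CI -0.41 to -0.24, adjusted p = 0.000515, limma). In Rh30 the libraries had 368.9, 364.3 and 404.7 FPKM in the Scramble libraries and 355.3, 359.6 and 337.0 FPKM with KDM3A-sh2. The ranges did not overlap there either, but the difference of -0.11 did not pass the test (95% CI -0.23 to 0.01, adjusted p = 0.14, limma). The effects differed by 0.21 (adjusted p = 0.0256, limma interaction), and this call held in 9 of 21 alternatives. It was lost without Rh30 Scramble replicate 1 or 2, Rh30 KDM3A-sh2 replicate 1 or 2, RD Scramble replicate 1, or RD KDM3A-sh2 replicate 2 or 3, with adjusted p from 0.0522 to 0.0601 (limma).

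CBX3 and CBX1 have processed copies elsewhere in the genome, and reads of near-identical copies may have been divided between them, so the levels of these genes are uncertain. The copy CBX3P9 was listed as high as CBX3, at 252.0 ± 3.85 FPKM in RD Scramble and 184.5 ± 8.81 FPKM in RD KDM3A-sh2 (SD, n = 3). In RD CBX3P9 fell by 0.45 (log2 scale, adjusted p = 0.000276, limma), and in Rh30 its means were 342.1 and 302.4 FPKM, a difference of -0.17 that did not pass (adjusted p = 0.0848, limma). The copies CBX1P1 and CBX1P2 were listed at 26.2 and 18.0 FPKM in RD Scramble, and both fell in RD, CBX1P1 by 0.62 and CBX1P2 by 0.56. Of 17 copies and overlapping transcripts named after a member, 7 were tested in each line. In RD 3 fell and 0 rose, against 19.5% and 21.6% of all genes tested. In Rh30 1 fell and 0 rose, against 13.2% and 15.3%. Since copies may share reads with their member, these are not separate observations.

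CBX5 (HP1 alpha) was called in neither line. Its level was 97.6, 87.9 and 82.1 FPKM in the Scramble libraries and 83.8, 75.8 and 82.6 FPKM with KDM3A-sh2 in RD, and the groups overlapped. The difference was -0.14 (95% CI -0.31 to 0.03, adjusted p = 0.164, limma). In Rh30 both groups had a mean of 110.5 FPKM, and the 95% confidence interval of the difference ran from -0.09 to 0.09. HNRNPA1, which encodes an RNA-binding protein of splicing, starts 60 bases from CBX5 on the opposite strand. HNRNPA1 fell in RD, from 403.2, 402.1 and 441.0 FPKM to 300.2, 298.0 and 267.9 FPKM, a difference of -0.52 (95% CI -0.66 to -0.39, adjusted p = 0.000584, limma). In Rh30 HNRNPA1 had means of 908.9 FPKM in the Scramble libraries and 970.1 FPKM with KDM3A-sh2 (log2 difference 0.09, adjusted p = 0.134, limma). The difference in response between these neighbours was not tested.

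Summed over CBX1, CBX3 and CBX5, HP1 mRNA was 552.6 ± 11.4 FPKM in RD Scramble and 421.9 ± 11.6 FPKM in RD KDM3A-sh2. In Rh30 the sum was 744.8 ± 31.5 FPKM in the Scramble libraries and 671.4 ± 21.4 FPKM with KDM3A-sh2 (SD, n = 3). The composition differed too, as a description without a test. CBX1 made up 40.3 to 41.9% of the sum in RD Scramble and 36.0 to 37.1% in RD KDM3A-sh2, and CBX5 went from 15.1 to 17.3% to 18.2 to 20.0%. In Rh30 the share of CBX1 was 33.9 to 34.8% with Scramble and 31.2 to 31.4% with KDM3A-sh2, while CBX3 had the larger share throughout, at 50.1 to 52.8%. These sums and shares leave out the copy CBX3P9, listed at means of 252.0 FPKM in RD Scramble and 342.1 FPKM in Rh30 Scramble, so they are uncertain.

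**Figure D3:**
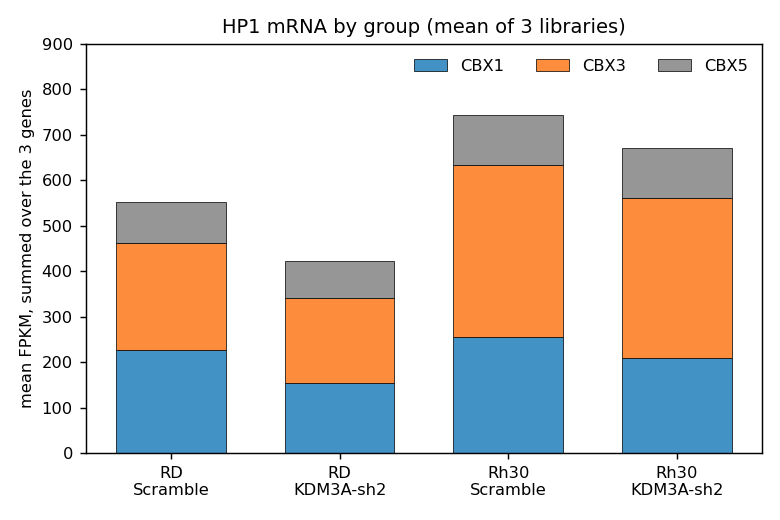
Mean FPKM of CBX1, CBX3 and CBX5 stacked for each of the 4 groups (3 libraries each; y axis from 0). In each line the KDM3A-sh2 stack is the shorter one, 421.9 against 552.6 FPKM in RD and 671.4 against 744.8 FPKM in Rh30. Processed copies are left out.

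Among the methyltransferases, SUV39H1, an enzyme of pericentric trimethylation, was the one called in RD. Its level was 12.7, 12.3 and 11.9 FPKM in the Scramble libraries and 10.1, 10.2 and 9.62 FPKM with KDM3A-sh2. It fell by 0.27 on the log2 scale (95% CI -0.42 to -0.13, adjusted p = 0.0108, limma). In Rh30 the libraries had 18.8, 18.9 and 16.7 FPKM in the Scramble libraries and 20.1, 19.9 and 19.1 FPKM with KDM3A-sh2. All 3 KDM3A-sh2 libraries were above the Scramble libraries there, and the difference of 0.11 did not pass the test (95% CI -0.04 to 0.27, adjusted p = 0.229, limma). The effects in the 2 lines differed by 0.39 (95% CI 0.21 to 0.57, adjusted p = 0.00477, limma interaction). This call held in all 21 alternatives that do not require a fold.

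Its relative SUV39H2 was called in neither line, and SUV39H1 and SUV39H2 were not tested against each other. In RD the level of SUV39H2 was 28.8, 27.0 and 26.8 FPKM in the Scramble libraries and 24.0, 26.1 and 24.9 FPKM with KDM3A-sh2, without overlap. In Rh30 means were 56.4 ± 4.11 and 51.6 ± 5.19 FPKM (SD, n = 3). The differences were -0.14 (adjusted p = 0.0842, limma) and -0.13 (adjusted p = 0.317, limma), and neither passed the test. The effects differed by 0.01 between the lines, with a 95% confidence interval from -0.22 to 0.24. The ratio of SUV39H2 to SUV39H1 was 2.24 ± 0.0403 in RD Scramble and 2.50 ± 0.114 in RD KDM3A-sh2, and in Rh30 3.12 ± 0.454 and 2.62 ± 0.190 (SD, n = 3).

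EHMT1, EHMT2 and SETDB1 were called in neither line. EHMT1 had means of 42.8 and 43.2 FPKM in RD and 57.7 and 56.3 FPKM in Rh30, for Scramble and KDM3A-sh2. The 95% confidence intervals of its differences were -0.12 to 0.15 in RD and -0.15 to 0.09 in Rh30. EHMT2 had means of 57.7 and 53.8 FPKM in RD and 48.0 and 50.9 FPKM in Rh30, with intervals of -0.23 to 0.03 and -0.06 to 0.23. Without RD Scramble replicate 1, EHMT2 was called lower in RD (-0.15, adjusted p = 0.0345, limma) and differed between the lines (0.24, adjusted p = 0.0446, limma). SETDB1 ranged from 34.9 to 42.8 FPKM in RD KDM3A-sh2 and from 43.5 to 54.7 FPKM in Rh30 KDM3A-sh2, and its intervals ran from -0.31 to 0.12 and from -0.16 to 0.26. Summed over the 5 methyltransferases, the level was 180.9 ± 5.58 FPKM in RD Scramble and 170.1 ± 1.76 FPKM in RD KDM3A-sh2, and 227.2 ± 3.65 and 227.6 ± 7.66 FPKM in Rh30. KDM3A mRNA was 18.6 ± 1.93% of that sum in RD Scramble and 7.16 ± 0.659% in RD KDM3A-sh2, and 13.1 ± 1.16% and 6.21 ± 0.606% in Rh30.

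TRIM28, the corepressor that recruits SETDB1, had 589.0, 641.4 and 723.5 FPKM in RD Scramble and 549.1, 534.9 and 534.7 FPKM in RD KDM3A-sh2. The groups did not overlap, but the Scramble libraries were spread more widely. TRIM28 fell by 0.27 on the log2 scale (95% CI -0.43 to -0.10, adjusted p = 0.0223, limma), and the call held in 10 of 16 alternatives. It was lost without RD Scramble replicate 2 (adjusted p = 0.0558), without RD KDM3A-sh2 replicate 2 (0.0638) and without RD KDM3A-sh2 replicate 3 (0.0585, all limma). In Rh30 means were 854.0 FPKM in the Scramble libraries and 845.0 FPKM with KDM3A-sh2, with a 95% confidence interval of -0.13 to 0.11. The difference between the lines, 0.25, did not pass (adjusted p = 0.0701, limma interaction), but was called without Rh30 Scramble replicate 2 (0.31, adjusted p = 0.0326) or without RD Scramble replicate 1 (0.32, adjusted p = 0.0162).

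Between the lines with Scramble, all 9 genes were called, 8 of them higher in Rh30 and EHMT2 lower. Of all 18357 genes tested, 74.5% were called in either direction, 35.0% higher in Rh30 and 39.6% lower. Line and medium cannot be told apart in this comparison. SUV39H2 had the largest difference, with 28.8, 27.0 and 26.8 FPKM in RD and 54.9, 53.2 and 61.0 FPKM in Rh30 (log2 difference 1.01, 95% CI 0.85 to 1.16, adjusted p = 7.56e-06, limma). It was followed by CBX3 (0.69), SUV39H1 (0.53), EHMT1 (0.42), TRIM28 (0.39), CBX5 (0.31), SETDB1 (0.21) and CBX1 (0.16), each on the log2 scale. The ranges did not overlap in 8 of the 9, with SETDB1 as the exception, against 77.5% of all genes tested.

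The pair EHMT1 and EHMT2 stood in opposite order in the 2 lines. EHMT2 had 53.3, 58.8 and 60.9 FPKM in RD and 50.2, 49.8 and 43.9 FPKM in Rh30, a log2 difference of -0.26 (95% CI -0.44 to -0.09, adjusted p = 0.015, limma). EHMT1 was higher in Rh30, at 56.7 to 59.1 FPKM against 42.1 to 43.1 FPKM. The ratio of EHMT2 to EHMT1 was 1.35 ± 0.0754 in RD and 0.832 ± 0.0573 in Rh30 (SD, n = 3). The call of SETDB1 held in 5 of 16 alternatives and was lost without Rh30 Scramble replicate 1 or 2 or RD Scramble replicate 1 or 2 (adjusted p from 0.0802 to 0.116, limma). That of EHMT2 held in 14 of 16 and was lost without RD Scramble replicate 3 (-0.22, adjusted p = 0.0521, limma). Rescaling all libraries to the same sum moved the median of all genes from -0.04 to -0.14 and the difference of CBX1 from 0.16 to 0.05, which was not called. On that scale CBX1 was still above the median gene.

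Partners of these proteins were described from lists. Of 12 partners of HP1, 8 fell and 0 rose in RD, against 19.5% of all genes called lower, and the median difference was -0.30. INCENP, a subunit of the chromosomal passenger complex, fell by 0.79, from a mean of 46.2 to 26.4 FPKM. CHAF1A, the large subunit of the histone chaperone CAF-1, fell by 0.73, and SUV420H2 (KMT5C), which methylates H4 lysine 20 in heterochromatin, fell by 0.62. In Rh30 5 of the 12 fell and 0 rose, against 13.2%, with a median of -0.15. These were SENP7, a SUMO protease (-0.26), CHAMP1 (-0.26), INCENP (-0.21), ATRX (-0.19) and LBR (-0.16). The call of INCENP in Rh30 was lost without any 1 library of that line other than Scramble replicate 3 (adjusted p from 0.0574 to 0.0799, limma). That of SENP7 was lost without Rh30 Scramble replicate 1 or Rh30 KDM3A-sh2 replicate 1 (adjusted p = 0.0505 and 0.0553, limma). The count in Rh30 was 2 without Rh30 Scramble replicate 1, without Rh30 KDM3A-sh2 replicate 1 or without Rh30 KDM3A-sh2 replicate 2, 3 without Rh30 KDM3A-sh2 replicate 3, and 1 with replicate number as a block. In RD it was 5 without RD Scramble replicate 1 or without RD KDM3A-sh2 replicate 1.

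Among 16 tested partners of the writers, 2 rose and 6 fell in RD, against 21.6% and 19.5% of all genes, and 4 rose and 1 fell in Rh30, against 15.3% and 13.2%. The number that fell in RD was 4 without RD Scramble replicate 1 or without RD KDM3A-sh2 replicate 1 or 2, and that in Rh30 was 0 without Rh30 Scramble replicate 1 or 2 or Rh30 KDM3A-sh2 replicate 1. UHRF1, which reads H3K9 methylation and guides maintenance DNA methylation, fell by 0.62 in RD, from 107.3 to 69.4 FPKM. In Rh30 UHRF1 had means of 94.4 and 82.8 FPKM (log2 difference -0.18, adjusted p = 0.0639, limma). MORC2, an ATPase that acts with the HUSH silencing complex, rose in both lines, by 0.51 in RD and 0.31 in Rh30, while FAM208A (TASOR), a HUSH subunit, fell by 0.41 in RD. The DNA methyltransferase DNMT3A went in opposite directions. It fell by 0.20 in RD, from 83.7 to 72.9 FPKM (adjusted p = 0.0112, limma), and rose by 0.46 in Rh30, from 43.4 to 60.2 FPKM, and the effects differed by 0.66 (95% CI 0.48 to 0.83, adjusted p = 0.000154, limma interaction). E2F6, a repressor found with EHMT1 and EHMT2, rose by 0.30 in Rh30, and in RD both groups had a mean of 34.2 FPKM.

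Of 11 H3K9 demethylases, 2 rose and 4 fell in RD, against 21.6% and 19.5% of all genes, and 1 rose and 4 fell in Rh30, against 15.3% and 13.2%. The count of falls includes KDM3A, the target of the shRNA. The 4 that fell were KDM3A, PHF2, KDM1A and KDM3B in each line. PHF2 fell by 0.89 in RD, from 19.5 to 10.0 FPKM, and by 0.38 in Rh30, from 30.3 to 23.0 FPKM, and KDM1A (LSD1) by 0.47 and 0.28. KDM3B, the closest relative of KDM3A in this list along with JMJD1C, fell by 0.21 in RD and by 0.14 in Rh30 (adjusted p = 0.0412, limma), a call lost without any 1 of the 6 Rh30 libraries (adjusted p from 0.0771 to 0.129). JMJD1C was called in neither line, with differences of -0.08 and 0.10. KDM4C, which demethylates trimethylated lysine 9, rose by 0.37 in RD and by 0.32 in Rh30. The call in Rh30 was lost without any 1 library of that line other than KDM3A-sh2 replicate 1 (adjusted p from 0.0555 to 0.104, limma). In RD 0 demethylases, KDM4C included, were called higher without Scramble replicate 1 or 2, without KDM3A-sh2 replicate 1 or 2, or with replicate number as a block.

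Of the 4 other H3K9 methyltransferases, 3 were tested in each line. PRDM2 rose by 0.23 in RD and SETDB2 by 0.52 in Rh30, where its mean went from 4.58 to 7.01 FPKM, and 0 fell in either line. Of all genes tested, 21.6% rose and 19.5% fell in RD, and 15.3% rose and 13.2% fell in Rh30. The CBX proteins of Polycomb complexes, which share the chromodomain but bind methylated lysine 27, were also set beside HP1. CBX6 rose by 1.02 in RD, from 23.5 to 48.6 FPKM, and by 0.62 in Rh30, from 18.4 to 28.8 FPKM. CBX2 fell by 0.54 in RD and by 0.17 in Rh30, and the other members tested, 3 in RD and 2 in Rh30, were not called. The shares over all genes given above apply to these counts too. The call of CBX2 in Rh30 held only without Rh30 Scramble replicate 3 and was lost when any other library of that line was left out (adjusted p from 0.0674 to 0.0884, limma). Of 12 germline genes, which H3K9 methylation keeps silent in many somatic cells, 1 passed the filter on low values in each line. In RD this was DDX43, with means of 0.693 and 1.48 FPKM, which passed only through its level with KDM3A-sh2, so that its difference is given as a description with no test. In Rh30 it was TEX14, with means of 3.48 and 5.79 FPKM, which was called higher. The call of TEX14 was lost without any 1 Rh30 library other than Scramble replicate 1 (adjusted p from 0.0517 to 0.0941, limma). It was also lost with no filter on low values (adjusted p = 0.0944, limma). Without that filter, 10 germline genes were tested in Rh30, where 0 rose and 1 fell, against 2131 and 1963 of all 32977 genes. In RD 9 were tested, of which 1 rose and 0 fell, against 3474 and 2993 of all 33511 genes.

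Zinc finger genes on chromosome 19, many of which encode the KRAB proteins that recruit TRIM28 and SETDB1 and some of which carry H3K9 methylation themselves, moved mostly one way in Rh30. The set was every symbol of ZNF plus digits on that chromosome. Which of its genes, including those named here, encode a KRAB protein was not checked. Of 215 tested, 81 rose and 0 fell (37.7% higher, against 15.3% of all genes), and the median difference was 0.23, beside 0.03 over all genes tested. The largest differences were those of ZNF578 (1.66 to 4.00 FPKM, log2 difference 0.93), ZNF414 (13.0 to 23.9 FPKM, 0.83) and ZNF524 (2.72 to 5.27 FPKM, 0.72). ZNF578 was not called without Rh30 KDM3A-sh2 replicate 2 or 3 (adjusted p = 0.0819 and 0.0805, limma), nor ZNF524 without any 1 Rh30 Scramble library or Rh30 KDM3A-sh2 replicate 1 (0.0568 to 0.0748). In RD 41 of 218 rose and 18 fell, against 21.6% and 19.5% of all genes, with a median of 0.07. With 1 library of RD left out, 27 to 36 rose, with 27 without RD KDM3A-sh2 replicate 2, and 11 to 13 fell, with 11 without any 1 RD Scramble library or without RD KDM3A-sh2 replicate 2. ZNF665 rose there by 0.79 and ZNF610 by 0.74, and ZNF114 fell by 1.06. In the test of the difference between the lines, 43 of 219 genes had a higher effect in Rh30 and 2 a lower one, against 14.4% and 13.4% of all genes. The count in Rh30 ran from 43 to 98 over 16 alternatives. It was 53 without Rh30 Scramble replicate 2, 44 without Rh30 KDM3A-sh2 replicate 1, 50 without Rh30 KDM3A-sh2 replicate 3, and 54 without Rh30 Scramble replicate 3.

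**Figure D4:**
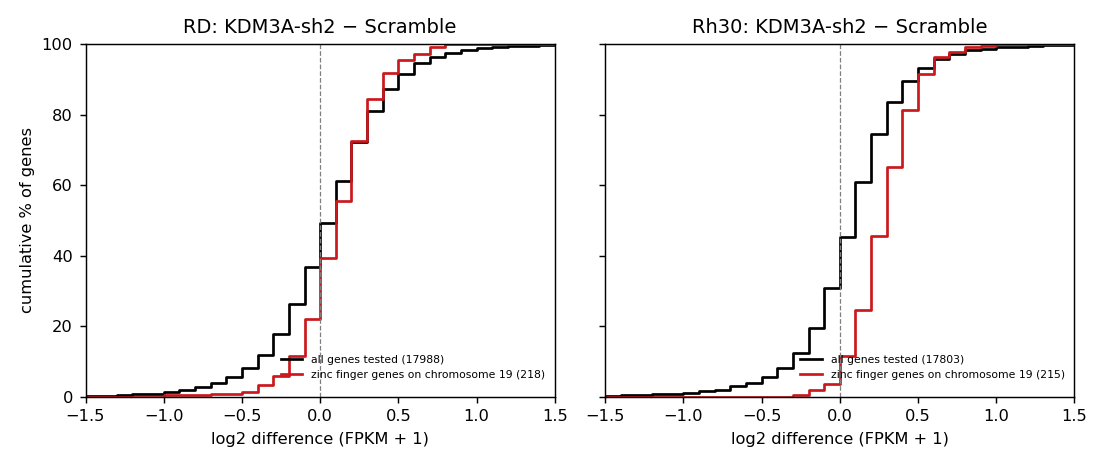
Cumulative percentage of genes (y axis) by log2 difference of KDM3A-sh2 against Scramble (x axis), for zinc finger genes on chromosome 19 (red) and for all genes tested (black), in RD and in Rh30. In Rh30 the red curve lies to the right of the black one over most of its range, with medians of 0.23 and 0.03.

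**Figure D5:**
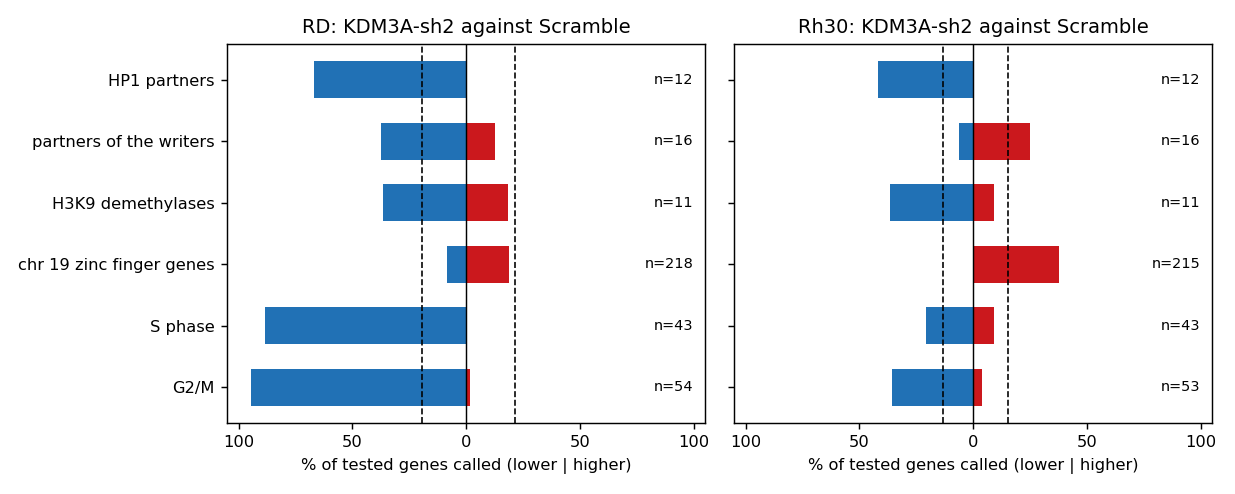
Percentage of the tested genes of each list called lower (blue, to the left) or higher (red, to the right) with KDM3A-sh2 in RD and in Rh30, with the number tested at the right; dashed lines give the percentages over all genes tested. HP1 partners have blue bars of 66.7% in RD and 41.7% in Rh30, and the zinc finger genes on chromosome 19 a red bar of 37.7% in Rh30.

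Besides HNRNPA1, 4 genes start within 1000 bases of a member on the opposite strand. ARRDC1-AS1, an antisense gene that starts 57 bases from EHMT1, rose by 0.32 in Rh30 (adjusted p = 0.00326, limma), from 30.1 to 37.8 FPKM, while EHMT1 was not called. The long noncoding RNA RP11-398C13.6, 134 bases from SUV39H2, rose by 0.42 in Rh30, from 1.39, 1.68 and 1.41 FPKM to a mean of 2.34 FPKM. C2, 98 bases from EHMT2, stayed at or below 1.86 FPKM in all libraries, and RN7SL525P, 513 bases from TRIM28, was listed at 0. The strand setting of the counting is not given in the sources used here, so reads of overlapping parts of such pairs may not have been separated.

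Over the 12 libraries, the genes with the profile most like each member were taken from 11016 genes averaging 10 FPKM or more, by Pearson's r of log2(FPKM + 1). The libraries of a group share their line and shRNA, so these values describe the 4 groups more than 12 independent points. For CBX1 they were BUD13 and XRCC6 (both 0.997) and MEST (0.993), and for CBX3 SRP9P1 (0.998), LYAR and H2AFZ (both 0.997). For SUV39H1 they were METRN (0.997), H2AFX and CARHSP1 (both 0.995). For SUV39H2 LANCL2 came first (0.995), for EHMT1 C10orf2 (0.977), for CBX5 MGA (0.982) and for TRIM28 RP1-159M24.1 (0.993). EHMT2 (NUDT16L1, 0.942) and SETDB1 (PNPLA2, 0.904) had no gene as close.

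The genes lie apart from one another on GRCh38 as annotated in GENCODE 29. Their positions are chr9:137618963-137870016 (EHMT1, ENSG00000181090), chr6:31879759-31897687 (EHMT2, ENSG00000204371), chr1:150926263-150964744 (SETDB1, ENSG00000143379), chrX:48695554-48709012 (SUV39H1, ENSG00000101945), chr10:14878820-14904315 (SUV39H2, ENSG00000152455), chr17:48070052-48101521 (CBX1, ENSG00000108468), chr7:26201162-26213356 (CBX3, ENSG00000122565), chr12:54230940-54280133 (CBX5, ENSG00000094916) and chr19:58544091-58550722 (TRIM28, ENSG00000130726). EHMT2, CBX1 and CBX5 are on the minus strand and the others on the plus strand, and all 9 are protein-coding.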

How the data were processed

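Directional mRNA libraries were sequenced by the authors, who aligned reads to GRCh38 with GSNAP, used SAMtools on the alignments and took FPKM from Cufflinks. The deposited values are FPKM without a log. The annotation release, the Cufflinks version and the strand setting are not given in the sources used here. FPKM do not carry read numbers, so no counting interval is given. Of 66095 entries, 120 repeats of 117 identifiers were left out, keeping the entry with the higher mean. In 17 genes the value 999999999 was read as missing, none of them a member.

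The comparisons were KDM3A-sh2 against Scramble within each line and Rh30 Scramble against RD Scramble. They used limma 3.58.1 in R 4.3.3 (lmFit, eBayes with trend) on log2(FPKM + 1) of genes averaging 1 FPKM or more, with a two-sided threshold of 0.05 after Benjamini-Hochberg adjustment over all genes tested. The difference between the lines was the interaction over all 12 libraries. The method was tested on simulated data. Positions and 3′ UTRs came from GENCODE 29 and promoters from RefSeq (GRCh38.p14). Cell cycle lists came from Seurat 5.3.0, and figures were drawn with matplotlib 3.10.9 in Python 3.11.15.

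The members and lists were chosen with earlier results of these data known. All 9 members, KDM3A, KDM3B and JMJD1C were named, with the 3 called genes of largest change per list and line, neighbours starting within 1000 bases, copies, and the 3 genes most like each member. Further list genes were named after their values were seen. Alternatives were a pseudocount of 0.1, no filter, a filter of 10 FPKM in 1 library, 2 rescalings, models without shared spread or trend, a replicate block, 1 fit of all 12 libraries, a fold of at least 1.5, and leaving out each library. Where alternatives are counted for a gene or list, the required fold is not among them.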

Additional observations from a re-analysis of the deposited data

Results flagged for a closer look

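The effect of KDM3A-sh2 differed between the lines for 3 of the 9 genes, by the interaction of line and shRNA in limma. Each difference is the effect in Rh30 minus that in RD on the log2(FPKM + 1) scale. It was 0.39 for SUV39H1 (adjusted p = 0.00477, range 0.33 to 0.42 over the alternatives on this scale), with all 3 KDM3A-sh2 libraries below Scramble in RD and all 3 above it in Rh30. It was 0.29 for CBX1 (adjusted p = 0.00173), which was lower in 3 of 3 KDM3A-sh2 libraries in each line. It was 0.21 for CBX3 (adjusted p = 0.0256), also lower in 3 of 3 in each line, with adjusted p from 0.00454 to 0.394 over 21 alternatives. Of all 18517 genes tested, 27.8% were called in this comparison. KDM3A itself was depleted to different degrees, with a difference of 0.37 (adjusted p = 0.0388, called in 8 of 21 alternatives), and its part in the differences of the 3 genes was not tested.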

How the results depend on the processing

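CBX1 in both lines, CBX3 and SUV39H1 in RD, the differences between lines of CBX1 and SUV39H1, and the higher level of EHMT1, SUV39H1, SUV39H2, CBX3, CBX5 and TRIM28 in Rh30 Scramble kept direction and call under every alternative that does not require a fold. Requiring a fold of at least 1.5 left 0 members lower in RD, 0 in Rh30, 0 that differ between lines, and 2 higher (CBX3 and SUV39H2) and 0 lower in Rh30 Scramble. EHMT2, the 1 member lower in Rh30 Scramble, was not called without shared spread on log2 values or without RD Scramble replicate 3, which left 0 lower. With leaving out 1 library each, counts ran from 0 to 1 for that result.

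Differences near 0 changed sign. For SUV39H2, the difference between lines was -0.05 with libraries rescaled to the same sum, -0.01 with the median ratio and -2.15 FPKM on unlogged values, and -0.05 to 0.09 with 1 library left out. On unlogged values CBX5 in Rh30 was 0.0180 FPKM, and the difference of KDM3B between lines -0.0815 FPKM. With 1 library left out, EHMT1 in RD ran from -0.02 to 0.07, CBX5 in Rh30 from -0.03 to 0.01, TRIM28 in Rh30 from -0.04 to 0.04 and SETDB1 in Rh30 from -0.03 to 0.13. The cause was not tested. Same-numbered libraries did not deviate together over all genes averaging 1 FPKM or more (Pearson r from -0.07 to 0.06). The numbers thus showed no sign of pairing. Pairing is not excluded, as spread within genes can hide it and the numbers of Rh30 Scramble rest on titles. With replicate number as a block, 3282 genes were higher and 2977 lower in RD, and 1798 and 1623 in Rh30; of the members' calls, the difference of CBX3 between lines (0.21, adjusted p = 0.0794, limma) and that of SETDB1 between Scramble groups (0.21, adjusted p = 0.0818) were lost. Among other calls, the block also ended those of KDM3B (adjusted p = 0.104), INCENP (0.0663), SENP7 (0.0554) and CBX2 (0.0653) in Rh30 and of KDM3A between lines (0.0641, all limma), and left 1 HP1 partner lower in Rh30 and 0 demethylases higher in RD. Alternatives for the zinc finger genes were added after seeing the data. FPKM hide the depth, and with 3 libraries per group, intervals of uncalled members reached -0.33 (SUV39H2 in Rh30).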
